A study of Mus musculus with 5 samples.

Results

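Macrophage and dendritic cell genes were read in RNA from mouse small intestine as 35 genes chosen by symbol, of which 29 had a row in the deposited table of 19198 genes. Macrophages of the gut wall take up dying cells and microbes, and those near the nerves and muscle take part in the control of motility. Dendritic cells carry antigen to lymph nodes and present it to T cells, and the XCR1-bearing subset is specialised for presentation to cytotoxic T cells. Both lineages depend on growth factor receptors, CSF1R for macrophages and FLT3 for dendritic cells. The 2 Cre-positive mice carried the Math1Cre*PR transgene and floxed mAChR4, the M4 muscarinic receptor gene Chrm4, and the 3 Cre-negative mice were floxed littermates without the transgene. Math1 (Atoh1) is a transcription factor of the secretory epithelial lineage, and Cre*PR is a Cre recombinase that becomes active with the progesterone receptor ligand RU486. RU486 was given to all 5 by gavage, once a day over 4 days at 10 mg/kg. No Cre-positive mouse with unfloxed Chrm4 was among the groups, so effects of active Cre and of targeting Chrm4 cannot be told apart. The Cre is named for a gene of epithelial cells, and the labels describe whole tissue, so the myeloid transcripts come from cells within a mixture. Fewer cells of a type and less RNA per cell cannot be told apart in such samples.

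The targeted gene Chrm4 had 13 and 5 counts in Cre-positive and 4, 20 and 4 counts in Cre-negative libraries, with overlapping groups (log2 fold change -0.14 ± 0.91, SE; edgeR adjusted p = 0.989). The labels do not say which part of Chrm4 is floxed, and other cells of the tissue can carry the intact gene, so this total does not check the genotype labels. Values for several mice are given in the order of their numbers, Cre-positive 1 and 2 and Cre-negative 1, 2 and 3. Library totals ran from 5000620 to 6618213 rounded counts in Cre-positive mice and from 4681113 to 5705909 in Cre-negative mice, and 1 count was worth 0.155 to 0.240 CPM, the count scaled to library size with edgeR's trimmed mean of M values (TMM). A level of 3 counts, the 1-sided 95% upper limit for a count of 0, was 0.466 to 0.719 CPM. The intervals below are 2-sided. These limits and the Poisson and binomial intervals below cover counting error only. Of 14352 genes passing the count filter, edgeR's quasi-likelihood test called 0 higher and 0 lower in Cre-positive mice (lowest Benjamini-Hochberg adjusted p = 0.977), with 485 genes at an unadjusted p under 0.05. DESeq2 called 12 higher and 7 lower, and limma-voom called 0. Of the 35 genes, 21 passed the filter, 8 had rows with too few counts, and Fcgr1, Aif1, Batf3, Ccr7, Clec10a and Cd209a had no row in the table used. Among defining markers, the macrophage genes Adgre1 (F4/80), Csf1r and the 3 C1q genes were found in every library. The dendritic cell genes Zbtb46, Clec9a and Itgax were found in every library too, Clec9a and Itgax on few counts in most. Flt3 and Xcr1 were at 0 in some libraries. The macrophage genes Aif1 and Fcgr1 and the dendritic cell genes Batf3 and Ccr7 were among those without a row.

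No macrophage or dendritic cell gene passed the test between genotypes. edgeR called 0 of the 21 members higher and 0 lower, against 0.0% of all genes in each direction, and DESeq2 called 0 members higher and 0 lower, against 0.0836% and 0.0488% of all genes. At an unadjusted p under 0.05, 0 of the 21 members were found with edgeR, against 3.38% of all genes, 1.6% higher and 1.78% lower. The members numbered 0 as well with DESeq2, against 1.74% higher and 1.55% lower, and with limma-voom, against 1.16% higher and 1.18% lower. The log2 ratio of Cre-positive to Cre-negative levels was above 0 for 18 of 21 members, against 45.5% of all genes tested, with a median of 0.30 beside -0.04 over all genes. That sign rested on one mouse: without Cre-positive 1, 3 of 21 members were positive, against 48.9% of all genes, and the median was -0.72. The 3 were Irf8, Ctsb and Lgals3. The 6 members whose mean log2 CPM was 4 or more (Lyz2, Irf8, Laptm5, Apoe, Ctsb and Lgals3) had a median of 0.57 with all mice and -0.06 without Cre-positive 1.

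Most of the members tested, though not all, shared an order of mice that did not follow genotype. Cre-positive 1 was the highest library for 15 of 21 members tested and for 22 of the 29 in the table, against 25.3% of all genes tested. Cre-negative 1 was the highest for 5 of 21, against 26.2% of all genes. Cre-positive 1 and Cre-negative 1 were the 2 highest libraries for 16 of 21 members, in either order, against 11.7% of all genes tested. The groups did not overlap for 1 of 21 members, Irf8, against 7.89% of all genes with Cre-positive higher and 10.2% with Cre-positive lower. These shares are descriptions of 5 mice, and no test was attached to them.

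**Figure D1:**
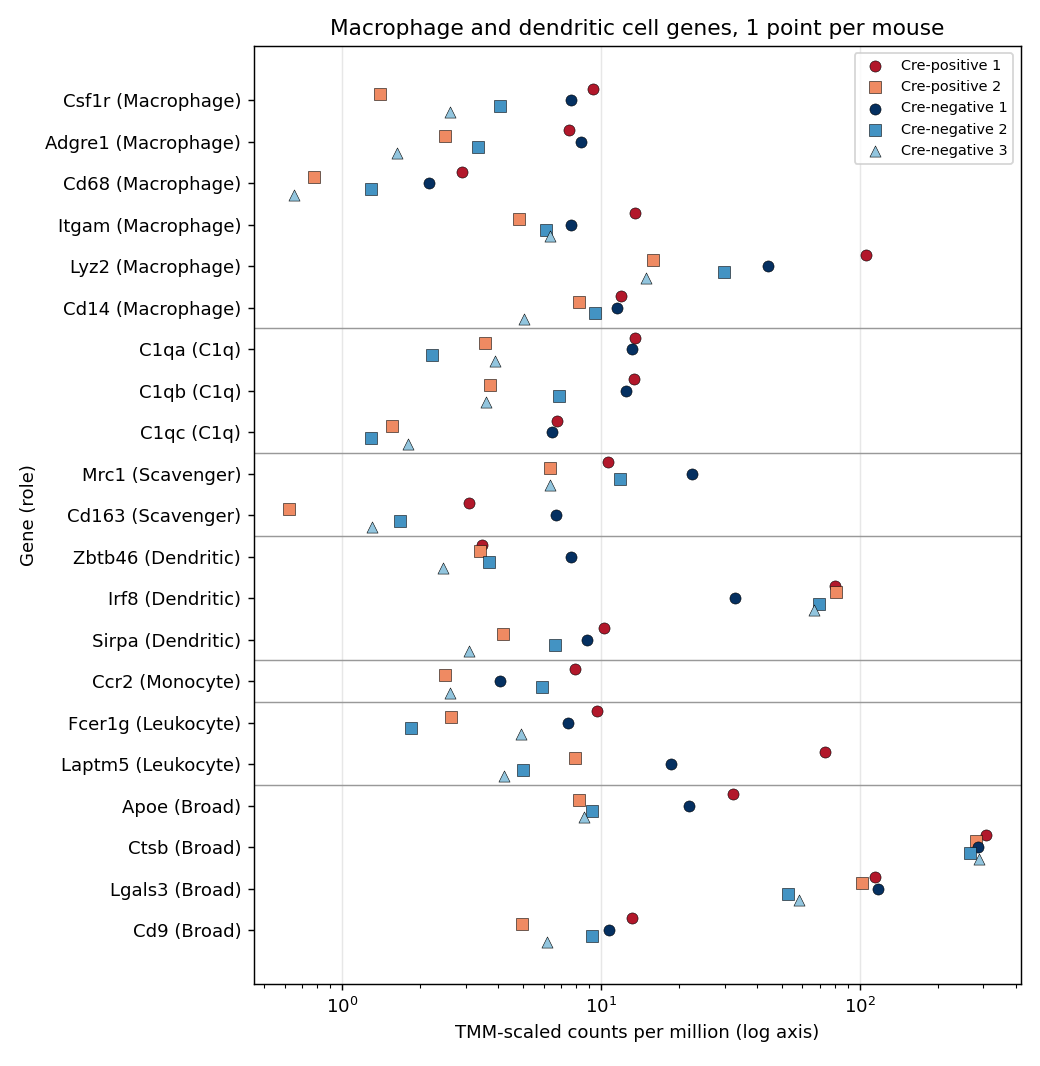
TMM-scaled CPM (log axis) of the 21 members that passed the count filter, 1 point per mouse, offset vertically by mouse and grouped by role. Cre-positive 1 and Cre-negative 1 lie at the right for most genes, 16 of 21 with both as the highest, while Irf8 has Cre-negative 1 as its lowest point at 32.8 CPM and Ctsb lies between 266 and 306 CPM.

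Csf1r, Adgre1, Cd68 and Cd14 had Cre-positive 1 and Cre-negative 1 as their highest mice, and Cx3cr1 did not. Csf1r, the receptor for the survival factor CSF1, had levels of 9.29 and 1.40 CPM in the Cre-positive mice and 7.67, 4.08 and 2.61 CPM in the Cre-negative mice. Cre-positive mice thus held both the highest and the lowest value, and the groups overlapped fully (log2 fold change 0.16 ± 0.79, SE; edgeR adjusted p = 0.985). Adgre1, an adhesion receptor that marks mouse macrophages, had levels of 7.55 and 2.49 CPM in the Cre-positive and 8.39, 3.34 and 1.63 CPM in the Cre-negative mice. Its log2 fold change was 0.19 ± 0.76 (SE; edgeR adjusted p = 0.982), and it became -0.75 without Cre-positive 1 and 1.03 without Cre-negative 1. Cd68, a lysosomal membrane glycoprotein of phagocytes, had few counts, 15 and 5 in Cre-positive and 9, 7 and 4 in Cre-negative libraries, and its groups overlapped (log2 fold change 0.44 ± 0.79, SE; edgeR adjusted p = 0.977). Cd14, which passes bacterial lipopolysaccharide to Toll-like receptors, varied less, at 12 and 8.24 CPM in Cre-positive and 11.5, 9.45 and 5.05 CPM in Cre-negative mice. Its groups also overlapped (log2 fold change 0.23 ± 0.41, SE; edgeR adjusted p = 0.977). Cx3cr1, the fractalkine receptor of resident gut macrophages, had 13 and 1 counts in Cre-positive and 2, 6 and 3 in Cre-negative libraries, too few for the test, with Cre-positive 1 highest and Cre-negative 1 among the lower mice.

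Itgam and Lyz2 stood higher in Cre-positive 1 than in Cre-negative 1. Itgam, the integrin chain CD11b of myeloid cells, had levels of 13.5 and 4.82 CPM in the Cre-positive and 7.67, 6.12 and 6.35 CPM in the Cre-negative mice. The Cre-negative mice lay close together, between the 2 Cre-positive values (log2 fold change 0.44 ± 0.46, SE; edgeR adjusted p = 0.977). Lyz2, the lysozyme of phagocytes, had levels of 106 and 15.9 CPM in the Cre-positive and 44.1, 29.8 and 15.0 CPM in the Cre-negative mice. Its log2 fold change of 1.04 ± 0.78 (SE; edgeR adjusted p = 0.977) became -0.85 without Cre-positive 1 and 1.89 without Cre-positive 2. Lyz1, the neighbouring lysozyme of Paneth cells, was far more abundant, at 1483 and 1526 CPM in Cre-positive and 1228, 2424 and 2335 CPM in Cre-negative mice. Lyz2 had estimated counts that were not whole numbers in 2 libraries, and its share of reads common to both lysozymes is uncertain. The order of mice differed between the 2 lysozymes, and Cre-positive 1 was the highest for Lyz2 and Cre-negative 2 for Lyz1.

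C1qa, C1qb and C1qc encode the chains that assemble into C1q, the recognition molecule of the classical complement pathway, which tissue macrophages produce. Their genes lie side by side on the minus strand of chromosome 4 (GRCm38, GENCODE M21), C1qb at 136880129 to 136886187, C1qc at 136889804 to 136893065 and C1qa at 136895917 to 136898803, and each has 3 exon blocks. C1qa had levels of 13.5 and 3.58 CPM in the Cre-positive and 13.2, 2.22 and 3.91 CPM in the Cre-negative mice. C1qb had levels of 13.4 and 3.73 CPM in the Cre-positive and 12.5, 6.86 and 3.58 CPM in the Cre-negative mice. C1qc had levels of 6.77 and 1.55 CPM in the Cre-positive and 6.47, 1.30 and 1.79 CPM in the Cre-negative mice. All 3 chains were highest in Cre-positive 1 and next in Cre-negative 1, and the Poisson intervals of C1qb overlapped between Cre-negative 1 and Cre-negative 2. Their summed level was 33.7 CPM (exact Poisson 95% interval 28.9 to 39.1) in Cre-positive 1 and 8.86 CPM (6.71 to 11.5) in Cre-positive 2. The sum was 32.1 CPM (26.9 to 38) in Cre-negative 1, 10.4 CPM (7.84 to 13.5) in Cre-negative 2 and 9.29 CPM (7.03 to 12) in Cre-negative 3. The intervals of Cre-positive 1 and Cre-negative 1 overlapped each other and none of the other 3 mice. Log2 fold changes between genotypes were 0.43 ± 0.83 for C1qa, 0.17 ± 0.67 for C1qb and 0.41 ± 0.86 for C1qc (SE; edgeR adjusted p = 0.977 to 0.983). With Cre-positive 1 left out they became -0.76, -0.97 and -0.93, and without Cre-negative 1 they became 1.48, 0.73 and 1.41.

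Promoter sequence is shown for 4 members. C1qb and C1qc were highest in Cre-positive 1 and next in Cre-negative 1, and Itgax was high in Cre-positive 1 alone. Cd163 was highest in Cre-negative 1 and next in Cre-positive 1, so it shares its 2 highest mice with the C1q genes. Other members, such as Irf8 and Ccr2, had other orders of mice. Each is the stretch of up to 250 bases before the RefSeq start (GRCm38.p6), without bases inside an annotated exon. Capitals mark the PU box, GAGGAA on either strand, a core that the myeloid factor PU.1 binds. C1qb and C1qc are on the minus strand at chr4:136886201-136886450 and chr4:136893066-136893164, and Cd163 and Itgax on the plus strand at chr6:124304401-124304650 and chr7:128129300-128129546.
C1qb: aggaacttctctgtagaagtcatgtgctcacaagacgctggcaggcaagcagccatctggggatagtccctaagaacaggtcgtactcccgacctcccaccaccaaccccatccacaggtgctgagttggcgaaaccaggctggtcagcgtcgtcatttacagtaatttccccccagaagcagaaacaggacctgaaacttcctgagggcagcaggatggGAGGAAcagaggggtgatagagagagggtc
C1qc: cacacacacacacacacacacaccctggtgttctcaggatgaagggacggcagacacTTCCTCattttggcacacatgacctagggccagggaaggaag
Cd163: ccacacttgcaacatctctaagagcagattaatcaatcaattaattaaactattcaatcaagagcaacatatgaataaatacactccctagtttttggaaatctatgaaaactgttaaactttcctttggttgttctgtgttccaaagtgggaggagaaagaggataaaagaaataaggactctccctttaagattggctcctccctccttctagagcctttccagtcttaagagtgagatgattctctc
Itgax: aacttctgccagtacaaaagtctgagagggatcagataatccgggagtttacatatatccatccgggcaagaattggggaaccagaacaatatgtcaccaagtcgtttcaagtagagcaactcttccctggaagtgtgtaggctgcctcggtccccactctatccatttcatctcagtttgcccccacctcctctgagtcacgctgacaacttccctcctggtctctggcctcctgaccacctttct
C1qb and C1qc each held 1 match and Cd163 and Itgax held 0 in these stretches. Of members, 26 had a RefSeq window, 29 windows in all, and 12 windows (41.4%) held the PU box, against 7639 of 32851 windows of all genes (23.3%). The motif was present in 11 members, namely Aif1, Apoe, Batf3, C1qb, C1qc, Cd68, Fcgr1, Itgam, Laptm5, Mrc1 and Trem2. Of these, Apoe, C1qb, C1qc, Cd68, Itgam and Laptm5 had Cre-positive 1 and Cre-negative 1 as their highest mice. Cd163, without a match, had the same 2 mice highest. Aif1, Batf3 and Fcgr1 had no row. Mrc1 was highest in Cre-negative 1 without Cre-positive 1 next, and Trem2, on few counts, in Cre-positive 1 without Cre-negative 1 next. The motif was thus not confined to genes with the order of the C1q genes, and its relation to the order of mice was not tested. A match describes letters and does not show binding. Spi1, which encodes PU.1 and was named for this motif after its values were seen, had 17 and 4 counts in Cre-positive and 3, 6 and 3 counts in Cre-negative libraries, highest in Cre-positive 1.

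The scavenger receptor genes Mrc1 and Cd163 were highest in Cre-negative 1, as were Adgre1, Zbtb46 and Lgals3 among the members tested. Mrc1, the mannose receptor CD206 of tissue macrophages and some endothelial cells, had levels of 10.6 and 6.37 CPM in the Cre-positive and 22.5, 11.9 and 6.35 CPM in the Cre-negative mice. Cre-negative 1 was the highest and Cre-positive 2 and Cre-negative 3 were nearly equal (log2 fold change -0.67 ± 0.55, SE; edgeR adjusted p = 0.977). The value was -0.07 without Cre-negative 1. Cd163, the haptoglobin-haemoglobin scavenger receptor, had levels of 3.10 and 0.622 CPM in the Cre-positive and 6.71, 1.67 and 1.30 CPM in the Cre-negative mice. Its log2 fold change of -0.78 ± 0.95 (SE; edgeR adjusted p = 0.977) became -2.24 without Cre-positive 1 and 0.04 without Cre-positive 2. Clec4a2, a C-type lectin receptor of myeloid cells, had 3 and 0 counts in Cre-positive and 8, 3 and 0 counts in Cre-negative libraries. For all 3 genes Cre-negative 1 was the highest mouse, and Cd163 had Cre-positive 1 next, as one of the 16 members above. This mouse also had the highest summed level of smooth muscle markers, at 1313 and 1576 CPM in Cre-positive and 4052, 2040 and 1571 CPM in Cre-negative 1, 2 and 3 (10 of 10 genes in the table). Fibroblast markers had the same leading mouse, at 391 and 244 CPM in Cre-positive and 776, 448 and 243 CPM in Cre-negative mice (8 of 8 genes). The part of these cells in the scavenger receptor levels was not tested.

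**Figure D2:**
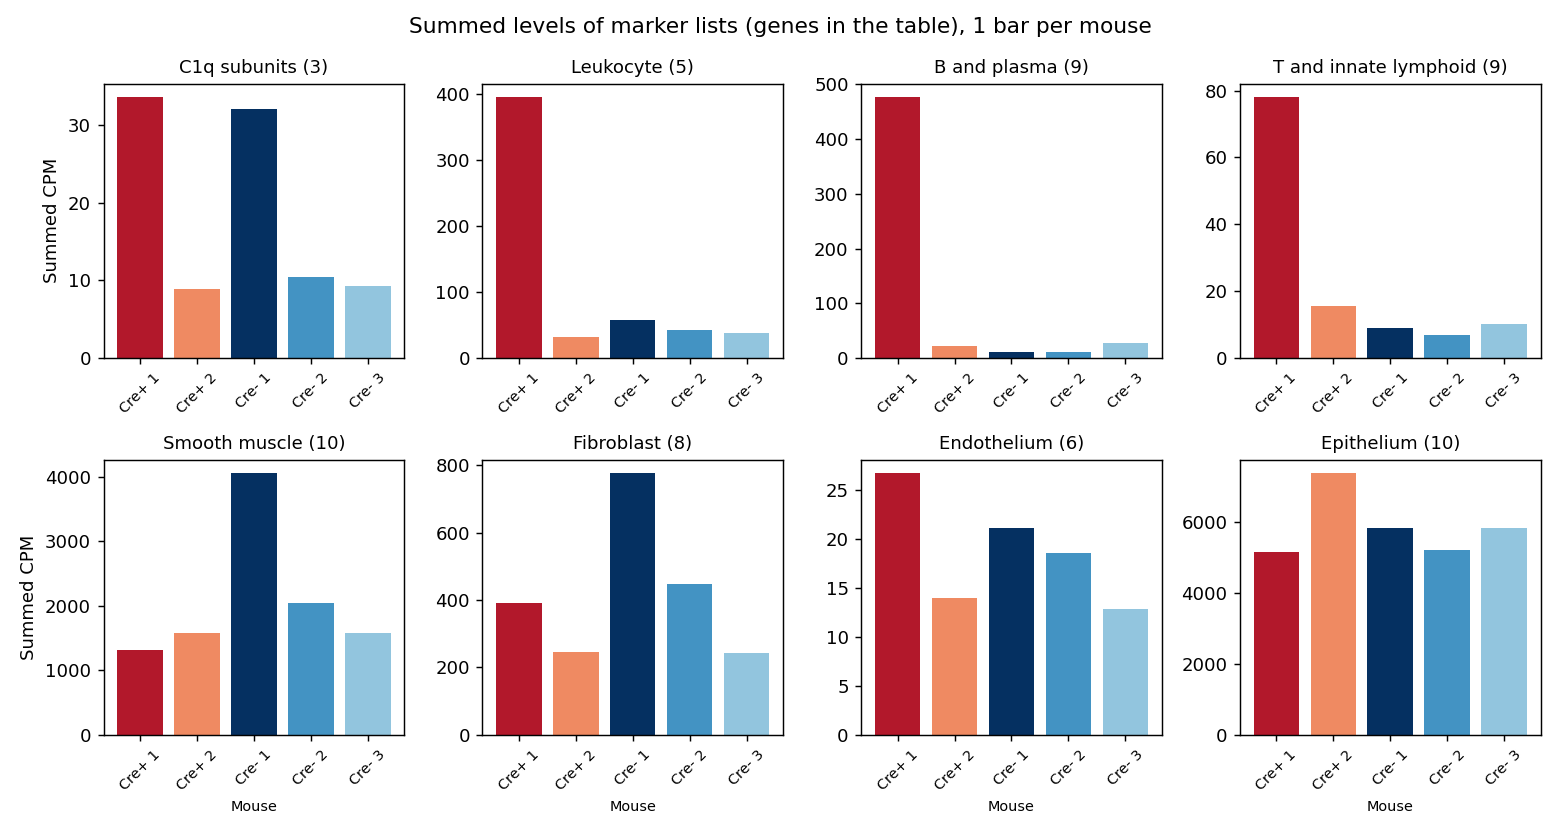
Summed TMM-scaled CPM of marker lists in each mouse (1 bar per mouse, linear axis from 0, Cre+ for Cre-positive and Cre- for Cre-negative, number of genes summed in brackets). C1q subunits are high in Cre-positive 1 (33.7 CPM) and Cre-negative 1 (32.1 CPM). Leukocyte, B and plasma cell and T cell lists are highest in Cre-positive 1, and the leukocyte list has Cre-negative 1 next (57.5 CPM). Smooth muscle and fibroblast lists are highest in Cre-negative 1.

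Dendritic cell genes were scarce, and 4 of the 7 in the table had too few counts for the test. Xcr1, the chemokine receptor of the cross-presenting subset, had 12 and 0 counts in Cre-positive and 1, 0 and 1 in Cre-negative libraries. Clec9a, that subset's receptor for damaged cells, had 7 and 5 counts in Cre-positive and 2, 4 and 3 in Cre-negative libraries. Flt3, the growth factor receptor of dendritic cell precursors, had 7 and 2 counts in Cre-positive and 1, 0 and 1 in Cre-negative libraries. Most Xcr1 counts came from Cre-positive 1, whereas Clec9a and Flt3 were above all 3 Cre-negative mice in both Cre-positive mice. The margin was as small as 5 against 4 counts for Clec9a and 2 against 1 for Flt3. Of all genes tested, 7.89% had both Cre-positive mice above all Cre-negative mice, and no share was computed for genes below the filter. Itgax, the integrin chain CD11c of dendritic cells and gut macrophages, had 37 and 3 counts in Cre-positive and 2, 8 and 9 in Cre-negative libraries. Its neighbour Itgam lies on the same strand of chromosome 7 (Itgam 128062640 to 128118491, Itgax 128129547 to 128150657) and had a smaller gap between Cre-positive 1 and the other mice.

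**Figure D3:**
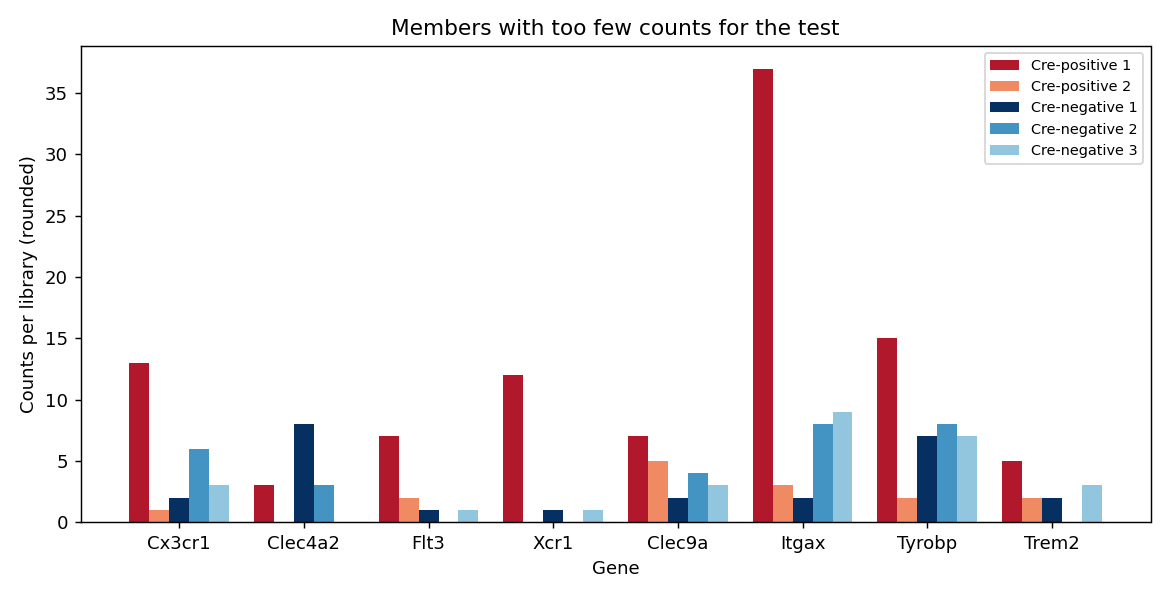
Rounded counts (linear axis from 0) of the 8 members in the table that did not pass the count filter, 1 bar per mouse. Cre-positive 1 is the highest bar for 7 of them, with Itgax at 37 counts, and Clec4a2 is highest in Cre-negative 1 at 8 counts.

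Zbtb46, Sirpa and Irf8 passed the filter. Zbtb46, a transcription factor of conventional dendritic cells that endothelial cells also express, had levels of 3.48 and 3.42 CPM in the Cre-positive and 7.67, 3.71 and 2.44 CPM in the Cre-negative mice. Cre-negative 1 stood apart and the other 4 mice were close together (log2 fold change -0.39 ± 0.55, SE, and 0.20 without Cre-negative 1; edgeR adjusted p = 0.977). Sirpa, the CD47 receptor of macrophages and of the second conventional dendritic subset, had levels of 10.3 and 4.20 CPM in the Cre-positive and 8.87, 6.67 and 3.10 CPM in the Cre-negative mice. Cre-positive 1 and Cre-negative 1 were again the highest (log2 fold change 0.22 ± 0.56, SE; edgeR adjusted p = 0.977). Irf8, a transcription factor that cross-presenting dendritic cells need and that B cells also express, had levels of 79.9 and 81.0 CPM in the Cre-positive and 32.8, 69.3 and 66.5 CPM in the Cre-negative mice. Both Cre-positive mice were above all Cre-negative mice, and Cre-negative 1 was far below the other 4 mice. The log2 fold change was 0.51 ± 0.33 (SE; edgeR adjusted p = 0.977), and it was 0.27 without Cre-negative 1 and 0.55 without Cre-positive 1. Irf8 was nearly equal in the 2 Cre-positive mice, whereas Xcr1, Itgax and the B cell markers differed widely between them. Irf8 alone stood above the summed level of 5 pan-leukocyte genes in Cre-positive 2 (31.7 CPM) and in Cre-negative 2 and 3 (42.4 and 38.4 CPM). It stood below that sum in Cre-positive 1 (396 CPM) and Cre-negative 1 (57.5 CPM). CPM is not scaled to exon length, so this comparison does not give the cell source. Which cells the Irf8 transcripts came from was not tested.

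Laptm5 had the largest fold change of the members tested. It encodes a lysosomal membrane protein of blood cells, found in lymphocytes as well as macrophages. Cre-positive 1 had 73.3 CPM (exact Poisson 95% interval 66.1 to 81.1), and Cre-positive 2 had 7.93 CPM (5.90 to 10.4). In Cre-negative 1, 2 and 3 it stood at 18.7 (14.8 to 23.3), 5.0 (3.30 to 7.28) and 4.24 CPM (2.77 to 6.21). Cre-positive 2 lay below Cre-negative 1, so the groups overlapped. The log2 fold change was 2.15 ± 1.01 (SE; unadjusted p = 0.0771, edgeR adjusted p = 0.977), and it was -0.16 when Cre-positive 1 was left out, 3.06 when Cre-positive 2 was and 3.15 when Cre-negative 1 was. Fcer1g, the signalling chain shared by Fc receptors, had levels of 9.68 and 2.64 CPM in the Cre-positive and 7.43, 1.85 and 4.89 CPM in the Cre-negative mice (log2 fold change 0.38 ± 0.71, SE; edgeR adjusted p = 0.977). Tyrobp, the adaptor DAP12, had 15 and 2 counts in Cre-positive and 7, 8 and 7 in Cre-negative libraries. Trem2, a lipid receptor that signals through DAP12, had 5 and 2 counts in Cre-positive and 2, 0 and 3 in Cre-negative libraries. Tyrobp was almost level across the Cre-negative mice, and the 2 Cre-positive mice lay on either side of them. Ccr2, the CCL2 receptor of monocytes, had levels of 7.93 and 2.49 CPM in the Cre-positive and 4.07, 5.93 and 2.61 CPM in the Cre-negative mice, with no separation of the groups (log2 fold change 0.30 ± 0.59, SE; edgeR adjusted p = 0.977).

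Markers of other leukocytes were highest in Cre-positive 1, as were 22 of the 29 members in the table, Laptm5, Itgax, Lyz2 and Xcr1 among them. The 5 pan-leukocyte genes, Ptprc (CD45) among them, summed to 396 and 31.7 CPM in Cre-positive and 57.5, 42.4 and 38.4 CPM in Cre-negative mice, with Coro1a at 0 in Cre-positive 2 and Cre-negative 2. B and plasma cell markers, 9 of 10 in the table, summed to 477 and 22.5 CPM in Cre-positive and 11.5, 11.3 and 27.2 CPM in Cre-negative mice, and Cd79a had 0 counts in each mouse except Cre-positive 1. T cell and innate lymphoid markers, 9 of 10 in the table, summed to 78.2 and 15.5 CPM in Cre-positive and 9.11, 6.86 and 10.1 CPM in Cre-negative mice. The part of lymphoid cells in the levels of Laptm5, Itgax, Lyz2, Xcr1 and the other members was not tested. Within a library, the 3 C1q genes had 0.212 and 0.594 counts for each Ptprc count in Cre-positive 1 and 2, against 1.61, 0.636 and 0.600 in Cre-negative 1, 2 and 3. The 24 members other than Irf8, Apoe, Ctsb, Lgals3 and Cd9 had 0.815 and 2.28 counts for each count of the 5 pan-leukocyte genes in Cre-positive mice, against 3.40, 2.51 and 1.82 in Cre-negative mice. Both ratios are free of library scaling, and both were lowest in Cre-positive 1 and highest in Cre-negative 1. Epithelial markers summed to 5132 and 7363 CPM in Cre-positive and 5824, 5209 and 5828 CPM in Cre-negative mice. Endothelial markers, 6 of 7 in the table, summed to 26.7 and 14 CPM in Cre-positive and 21.1, 18.5 and 12.9 CPM in Cre-negative mice, with Cdh5 at 0 in Cre-negative 3. The endothelial and pan-leukocyte sums thus had Cre-positive 1 and Cre-negative 1 as their 2 highest mice, as 16 of the 21 members did. In the pan-leukocyte sum Cre-negative 1 was far below Cre-positive 1. The part of either list in the levels of the members was not tested. Mast cells were represented by Kit alone, at 18.8 and 9.64 CPM in Cre-positive and 18.2, 20.8 and 10.6 CPM in Cre-negative mice, and Kit also marks pacemaker cells of the gut wall. Glial and neuronal markers, 4 of 6 in the table, summed to 2.71 and 4.97 CPM in Cre-positive and 10.3, 7.23 and 3.91 CPM in Cre-negative mice.

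Ctsb, Lgals3, Apoe and Cd9 are expressed by many cell types besides myeloid cells, and Ctsb varied little between mice while Apoe varied widely. Ctsb, the lysosomal protease cathepsin B, had levels of 306 and 282 CPM in the Cre-positive and 287, 266 and 288 CPM in the Cre-negative mice (log2 fold change 0.07 ± 0.20, SE; edgeR adjusted p = 0.981). Its estimated counts were not whole numbers in any of the 5 libraries. Lgals3, galectin-3 of macrophages and of villus epithelium, had levels of 115 and 102 CPM in the Cre-positive and 117, 52.8 and 58.0 CPM in the Cre-negative mice. Cre-negative 1 joined the 2 Cre-positive mice at the high level (log2 fold change 0.51 ± 0.36, SE, and 0.99 without Cre-negative 1; edgeR adjusted p = 0.977). Apoe, the lipid carrier made by macrophages, had levels of 32.3 and 8.24 CPM in the Cre-positive and 21.8, 9.27 and 8.63 CPM in the Cre-negative mice. Like the C1q genes, Apoe had Cre-positive 1 and Cre-negative 1 above the others (log2 fold change 0.62 ± 0.64, SE; edgeR adjusted p = 0.977), and it became -0.63 without Cre-positive 1. Cd9, a membrane-organising tetraspanin, had levels of 13.2 and 4.97 CPM in the Cre-positive and 10.8, 9.27 and 6.19 CPM in the Cre-negative mice. Its groups overlapped (log2 fold change 0.05 ± 0.47, SE; edgeR adjusted p = 0.993).

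**Figure D4:**
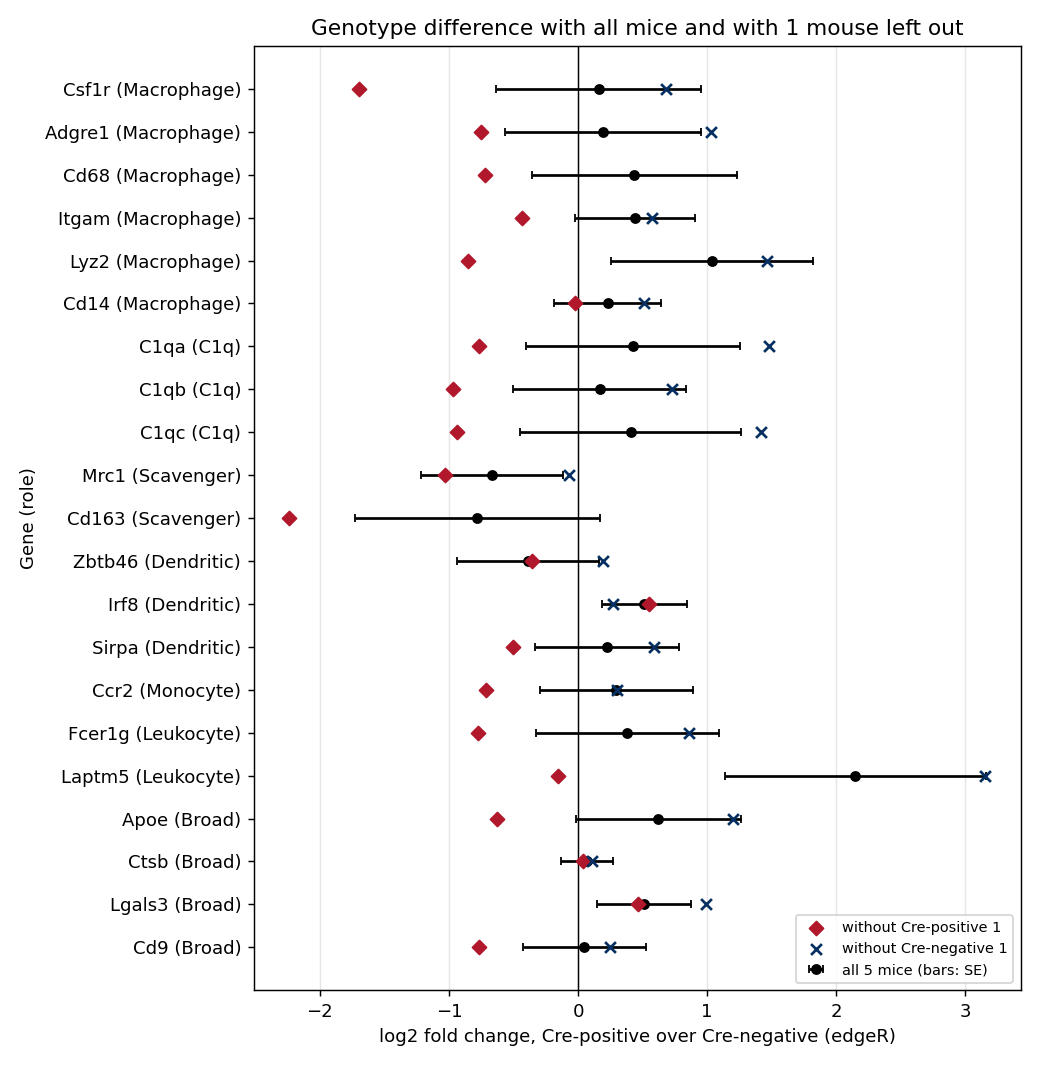
Log2 ratio (fold change, Cre-positive to Cre-negative) for the 21 members tested with edgeR, with all 5 mice (black, bars are SE), without Cre-positive 1 (red diamonds) and without Cre-negative 1 (blue crosses, absent for Cd68 and Cd163, which then failed the count filter). Leaving out Cre-positive 1 moves Laptm5 to -0.16 and the median of the members to -0.72.

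Per kilobase of exon, the median level over the 5 mice was highest for Lgals3 (54.9 CPM per kb), Ctsb (47.4), Lyz2 (22.7) and Irf8 (9.82). Lgals3 was below Ctsb in Cre-negative 2 and 3, Lyz2 was above both in Cre-positive 1, and the range of Irf8 overlapped that of C1qb, so this order did not hold in every mouse. Then came C1qb (6.30), Fcer1g (5.59), Cd14 (5.46), Cd9 (4.53), Apoe (4.33) and C1qa (3.76), whose ranges over mice overlapped, so their order is not separated. Csf1r (0.71), Adgre1 (1.03) and Cd68 (1.03) were lower, and Xcr1 and Flt3 were lowest, each at 0.04 CPM per kb. C1qc, the longest of the C1q genes in exon length at 1931 bases, stood at 0.93 CPM per kb. These levels used all annotated exons of a gene, and transcripts that use fewer exons would have higher values.

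Genes that act on these cells did not pass the test either. Of the ligands and chemokines, 9 of 14 had a row and 7 were tested, with 0 called, 2 above 0 and the median log2 fold change at -0.52. Csf1, the ligand of CSF1R, had levels of 4.06 and 3.42 CPM in the Cre-positive and 16.8, 3.89 and 4.07 CPM in the Cre-negative mice, with Cre-negative 1 far above the other 4 mice. Cx3cl1, the ligand of CX3CR1, had levels of 44.1 and 111 CPM in the Cre-positive and 85.8, 101 and 89.1 CPM in the Cre-negative mice. Ccl2, the monocyte attractant that binds CCR2, had levels of 6.58 and 1.71 CPM in the Cre-positive and 35.5, 24.8 and 13.5 CPM in the Cre-negative mice. The groups did not overlap for Ccl2 (log2 fold change -2.58 ± 0.66, SE; unadjusted p = 0.00563, edgeR adjusted p = 0.977), whereas they did for its receptor gene Ccr2. Of all genes tested, 10.2% had both Cre-positive mice below all Cre-negative mice, and 3.38% had an unadjusted p under 0.05 with edgeR. Il34, a second CSF1R ligand, had 13 and 5 counts in Cre-positive and 4, 4 and 3 in Cre-negative libraries, and Flt3l, the FLT3 ligand, had 15 and 6 in Cre-positive and 15, 1 and 6 in Cre-negative libraries.

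Lineage transcription factors had 12 of 15 genes tested, 3 above 0 and the median log2 fold change at -0.10. The smallest unadjusted p belonged to Cebpb (-1.14 ± 0.55, SE), Mef2c (1.61 ± 0.89) and Nr4a1 (-1.0 ± 0.91). Fc, complement and scavenger receptors had 11 of 16 tested, 6 positive and a median of 0.03, led by the integrin gene Itgb2, the partner chain of CD11b and CD11c. Itgb2 had levels of 18.2 and 1.55 CPM in the Cre-positive and 3.12, 2.78 and 2.61 CPM in the Cre-negative mice, with the Cre-positive mice on either side of the others. C5ar1, the C5a receptor, and Stab1, a scavenger receptor, had log2 fold changes of 0.95 ± 0.86 and -0.67 ± 0.67 (SE). Lysosome genes had 14 of 14 tested, 9 positive and a median of 0.11, with Lamp2 at 0.30 ± 0.20 and the protease gene Ctss at 0.25 ± 0.20. Of 11 monocyte and neutrophil genes, 5 had a row and only Plac8 (0.74 ± 0.39) and F13a1 (-0.76 ± 0.81) were tested. Macrophage cytokine genes had 6 of 11 tested, 3 positive and a median of -0.01, and the smallest p belonged to Il6 (-1.91 ± 0.58), Cxcl9 (2.62 ± 1.17) and Cxcl10 (-1.34 ± 0.77). None of the genes in these 6 lists was called over all genes (edgeR adjusted p of at least 0.977).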

How the data were processed

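RNA from small intestine of 5 mice (2 Cre-positive, 3 Cre-negative, grouped by the genotype label) was depleted of ribosomal RNA before library preparation, as the labels' protocols state. The authors deposited estimated counts per gene symbol, not scaled to library size. Partek and the mm10 build are credited to the submitters' processing notes. Not given in the sources used here are the aligner, annotation and strand setting. In each library, between 19.6% and 21.7% of values were farther than 0.005 from a whole number. Counts were rounded to whole numbers. Columns that belong to no mouse of the series numbered 0.

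The main test was edgeR 4.0.16 (R 4.3.3): TMM scaling, the filterByExpr filter (minimum count 10), a robust quasi-likelihood fit with genotype as the only term, Benjamini-Hochberg adjustment over 14352 genes and a threshold of 0.05. SE is |log2 fold change| / √F. Residual degrees of freedom numbered 3, and the common biological variation coefficient was 33.1%. Replicates are mice, numbered in record order, and pair no mice. Alternatives were scaling by RLE, by upper quartiles or by totals, no filter, a filter of 5 CPM in 2 libraries, DESeq2 1.42.0, limma-voom (limma 3.58.1), no robust estimation and leaving out each mouse.

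Members and lists were chosen with earlier results of these data known. All members in the table are named. Of the ligand list Csf1, Il34, Flt3l, Cx3cl1 and Ccl2 are named, and of each other companion list the 3 genes with the smallest unadjusted p, except 1 that is not reported here. Exon lengths, coordinates and overlaps came from GENCODE M21 (GRCm38), and promoters from RefSeq (GRCm38.p6). Exons overlapped another gene for Clec9a (Clec1b) and Itgam (Gm49368) on the same strand and for Csf1r (Hmgxb3), Ctsb (Fdft1), Cd9 (Gm26728) and Cx3cr1 (Gm33858) on the opposite strand. Values that were not whole also occurred for Csf1r in 3 libraries and for Clec9a and Cd9 in 1 each.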

Additional observations from a re-analysis of the deposited data

How the results depend on the processing

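No alternative called a member: the counts of higher and lower members stayed at 0 and 0 under every alternative run, and the lowest adjusted p of a member was 0.230 (Laptm5). Over all genes, DESeq2 called 12 higher and 7 lower, and leaving out each mouse in turn gave 0 to 58 higher (58 without Cre-positive 2) and 0 to 0 lower. The median log2 fold change of the members ranged from -0.72 (without Cre-positive 1) to 0.87 (without Cre-positive 2) when mice were left out, and that of the 6 members whose mean log2 CPM was 4 or more from -0.058 (without Cre-positive 1) to 1.10 (without Cre-negative 1). Under the other alternatives both medians moved by less than the spread between mice. With limma-voom the log2 fold change turned to -0.090 for Cd9 and -0.29 for Csf1r, and the cause was not tested. Leaving out mice changed the sign of 17 members, 15 of them positive with all mice and negative without Cre-positive 1, and their log2 fold changes ranged as follows: Adgre1 -0.75 to 1.03, Apoe -0.63 to 1.35, C1qa -0.76 to 1.48, C1qb -0.97 to 0.87, C1qc -0.93 to 1.41, Ccr2 -0.72 to 0.95, Cd14 -0.024 to 0.52, Cd163 -2.24 to 0.044, Cd68 -0.72 to 1.16, Cd9 -0.77 to 0.64, Csf1r -1.69 to 1.03, Fcer1g -0.77 to 1.10, Itgam -0.44 to 1.05, Laptm5 -0.16 to 3.15, Lyz2 -0.85 to 1.89, Sirpa -0.51 to 0.78 and Zbtb46 -0.66 to 0.20. A fit that leaves out a Cre-positive mouse has 1 mouse in that group, which is then assumed to vary like the Cre-negative mice. Counts below 10 were frequent among Xcr1, Clec9a, Flt3 and Itgax, which did not pass the count filter of the main test, and low abundance and depth were not separated. No paired analysis was possible because the labels give each mouse its own number and no shared replicate number.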

Other observations

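Mrc1 and C1qb, both genes of tissue macrophages, kept nearly the same proportion in 4 of the 5 mice, and this pair was picked after its values were seen. Of the counts of Mrc1 and C1qb together, Mrc1 took 44.4% (55 of 124 counts; exact Clopper-Pearson 95% interval 35.4% to 53.5%) in Cre-positive 1 and 63.1% (50.2% to 74.7%) in Cre-positive 2. In Cre-negative 1, 2 and 3 it took 64.4% (56.0% to 72.1%), 63.4% (53.2% to 72.7%) and 63.9% (50.6% to 75.8%). The summed C1q level of Cre-positive 1 and Cre-negative 1 was nearly equal, while the proportion of Mrc1 differed between them. The interval of Cre-positive 1 overlapped those of the other mice except Cre-negative 1. The pattern did not hold with C1qa in place of C1qb. In Cre-negative 2, Mrc1 had 64 counts against 12 of C1qa. In Cre-positive 1 and 2 it had 55 against 70 and 41 against 23, and in Cre-negative 1 and 3 it had 94 against 55 and 39 against 24. The proportion of Mrc1 to C1qb does not depend on how the libraries were scaled.

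C1qa and C1qb had about equal counts in 4 mice and not in the remaining one, also seen only on inspection. C1qa took 50.4% (95% interval 41.8% to 58.9%) and 48.9% (34.1% to 63.9%) of the counts of C1qa and C1qb in Cre-positive 1 and 2. It took 51.4% (41.5% to 61.2%) in Cre-negative 1, 24.5% (13.3% to 38.9%) in Cre-negative 2 and 52.2% (36.9% to 67.1%) in Cre-negative 3. The low proportion rests on 12 C1qa and 37 C1qb counts, and its interval lies below that of both Cre-positive 1 and Cre-negative 1. C1qc had 35 and 10 counts in Cre-positive and 27, 7 and 11 counts in Cre-negative libraries, beside C1qb at 69 and 24 and at 52, 37 and 22. In Cre-negative 2, C1qc was thus also low against C1qb, while its ratio to C1qa was similar to that in the other mice. The cause was not tested.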
